A study of Oryza sativa with 4 samples.

Results

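SAPK1 to SAPK10 are the rice members of the SnRK2 protein kinases, and all 10 were found by locus identifier among the 91960 features of the deposited tables, of which 37830 carry a rice locus identifier. Each of the 10 names was matched in a RefSeq gene table (rice assembly ASM3414082v1) on the chromosome that its locus identifier gives. Transcripts were counted by RNA sequencing of total RNA from rice seedlings (Oryza sativa, japonica) 7 days old, in days of 14 h light and nights of 10 h. The groups compared were the mutant line bta1-1 (2 libraries) and the wild type line SN9816 (2 libraries). All 4 libraries come from seedlings of the same age and light regime, with no hormone or stress treatment named in the labels. The BTA1 locus is known to be that of LAZY1, which drives the bending of shoots against gravity and so holds tillers close to vertical. The sources used here do not name the background in which bta1-1 arose, so the mutation and other differences between the lines cannot be told apart. The labels name seedlings without an organ, and fewer cells of a type and less RNA per cell cannot be told apart in such bulk samples.

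SnRK2 kinases carry the abscisic acid signal. Without the hormone, clade A protein phosphatases type 2C (PP2C) bind these kinases and keep them dephosphorylated and inactive. When abscisic acid rises in drought or salt stress, receptors of the PYL family capture the phosphatases, the kinases become active, and they phosphorylate bZIP transcription factors and the guard cell anion channel SLAC1. In rice, SAPK8, SAPK9 and SAPK10 form subclass III, whose activity rises with abscisic acid as well as with osmotic stress. SAPK1, SAPK2 and SAPK3 form subclass II, and SAPK4 to SAPK7 form subclass I. Both of these subclasses are known mainly for activation by osmotic stress, although SAPK2 also takes part in abscisic acid responses. Kinase activity is set by phosphorylation, which transcript counts do not measure.

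The libraries held 15093108 to 20334851 counted reads. CPM are reads per 1000000 counted reads, scaled between libraries, and FPKM are fragments per 1000 bases of gene and 1000000 counted reads. Pearson's r of log2 CPM over genes, which do not stand for independent replicates, was 0.9704 within bta1-1 and 0.9693 within wild type, and 0.8928 to 0.928 between the groups. LAZY1 (OS11G0490600) had 70 and 89 reads in bta1-1 libraries 1 and 2, against 767 and 461 reads in wild type libraries 1 and 2. LAZY1 was thus lower in both mutant libraries (log2 fold change -2.93, adjusted p = 0.000445). Every adjusted p here is from edgeR's quasi-likelihood test with Benjamini-Hochberg adjustment over 24396 genes unless another tool is named, and genes with an adjusted p under 0.05 are called. The p-values set the difference between the groups against a spread between replicates that is estimated with the help of all tested genes. No source says that replicates came from separate plants, beyond the term biological replicates, so whether that spread is one between plants is not known. Leaf markers, 4 loci of the Rubisco small subunit and 2 of the light-harvesting antenna, summed to 38000 and 19200 CPM in bta1-1 libraries 1 and 2 and to 19500 and 29700 CPM in wild type libraries 1 and 2. Root markers, 4 genes of silicon and iron uptake (LSI1, YSL15, NAS1 and NAS2), summed to 641 and 844 CPM in bta1-1 and to 1020 and 687 CPM in wild type. Both organs were therefore represented in every library, the groups overlapped in both sums, and 0 of 6 leaf and 0 of 4 root markers were called (0 of each at an unadjusted p under 0.05, by DESeq2 and by limma on log2(FPKM + 1)). In the leaf list the member with the smallest p, Rubisco locus OS12G0292400, had a log2 fold change of -1.04 (adjusted p = 0.386), and -2.05 without bta1-1 library 1. That locus was called lower, at -1.03, where edgeR tested every gene with any read (adjusted p = 0.0379). In the fit of 24396 genes the other Rubisco loci were at -0.42, -0.77 and -0.24. The antenna genes CAB1R and CAB2R went the other way there, at 0.39 and 0.56. In the root list the smallest p belonged to NAS2, at -0.34 (adjusted p = 0.635).

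Of the 10 SAPK transcripts, SAPK9 was lower in bta1-1 and the other 9 were not called. SAPK9 fell 2.45-fold, to 17.8 ± 1.54 CPM in bta1-1 against 43.7 ± 1.62 CPM in wild type (SD, n = 2 per group). Its relatives in the subclass activated by abscisic acid, SAPK8 and SAPK10, stood at -0.05 and -0.30 (log2 fold change) and did not pass the test. The count of 1 member of 10 called lower stands beside 2.64% of all tested genes called lower, and 0 members were called higher beside 2.77% of all tested genes. At an unadjusted p under 0.05 the counts were again 1 lower and 0 higher, and DESeq2 called the same numbers. All 10 members passed the filter on low counts, with 147 to 7445 reads in a library.

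**Figure D1:**
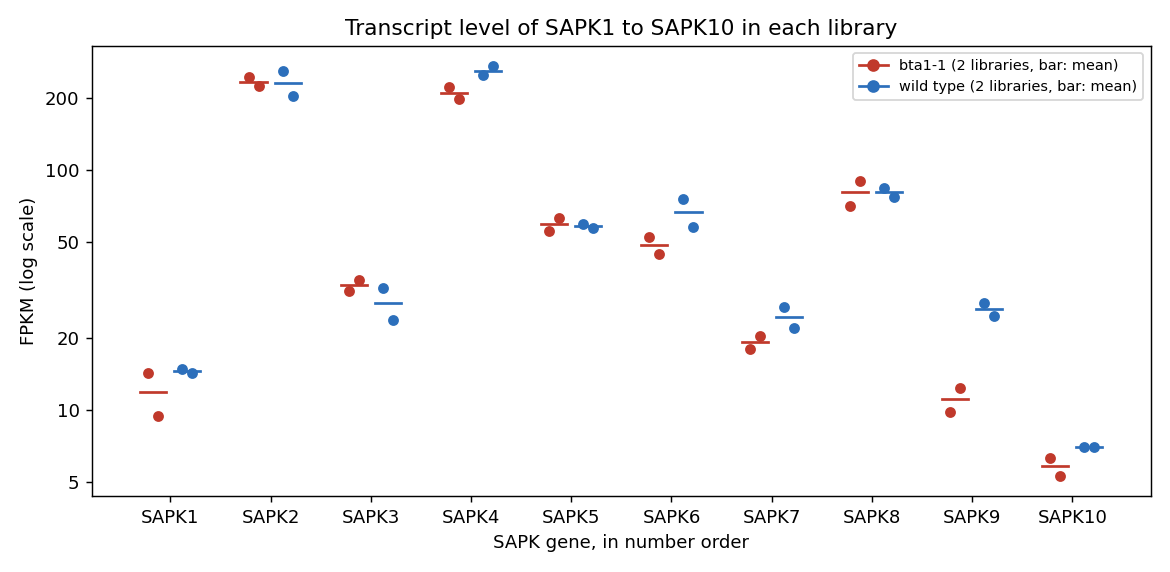
FPKM of each SAPK gene on a log axis, with 1 point per library and a bar at the mean of the 2 libraries of a group, bta1-1 in red to the left of wild type in blue. SAPK9 lies at 9.82 and 12.3 FPKM in bta1-1, below both wild type libraries at 28.0 and 24.6 FPKM. In FPKM, SAPK1, SAPK2, SAPK3, SAPK5 and SAPK8 overlap between the groups. The FPKM of SAPK4 rest on a short gene length and are not comparable with those of the other genes.

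SAPK9 (OS12G0586100, chromosome 12) is a positive regulator of drought responses in rice and phosphorylates the bZIP factor TRAB1. It had 279 and 349 reads in bta1-1 libraries 1 and 2, against 932 and 609 reads in wild type libraries 1 and 2. Scaled for library size these were 16.7 and 18.9 CPM in bta1-1, against 44.8 and 42.5 CPM in wild type. Both mutant libraries were low and both wild type libraries were high, with no overlap. The log2 fold change was -1.29 (SE 0.22, 95% confidence interval -1.80 to -0.79, adjusted p = 0.0143). The replicates of SAPK9 differed by 0.18 (log2 CPM) within bta1-1 and by 0.08 within wild type, so the difference between the groups exceeded the spread within them. Among all tested genes 4.09% had a log2 fold change as low or lower, and by p SAPK9 was number 293 of the 644 genes called lower. With each library left out in turn, which leaves 1 library in a group whose spread is then taken from the other group, SAPK9 was called each time, with log2 fold changes of -1.35 to -1.21 and adjusted p of 0.0121 to 0.0305. By limma on log2(FPKM + 1) for every gene with any value, which called 2 genes higher and 9 lower in all, SAPK9 had adjusted p = 0.173.

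Whether SAPK9 lies in a stretch where the lines differ was looked at through its neighbours on chromosome 12, taken in the order of locus numbers. Of the 20 tested loci on each side, 3 of 40 were called, all 3 of them higher, which is 7.5% beside 5.41% of all tested genes. The median log2 fold change of the 40 was -0.19, beside -0.01 over all tested genes. Around the other SAPK genes that median ran from -0.18 to 0.17. None of the nearest 5 on each side was called. None of the 40 was read in 1 line alone, taken as 20 or more reads in both of its libraries and no more than 3 in either library of the other line. Around the other SAPK genes, 0 to 3 of 40 neighbours were called.

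SAPK8 (OS03G0764800, chromosome 3) activates the anion channel SLAC1 and was by far the most abundant member of its subclass. It had 70.8 and 90.2 FPKM in bta1-1 libraries 1 and 2, and 84.4 and 77.2 FPKM in wild type libraries 1 and 2. The mutant libraries lay on both sides of the wild type ones, and the log2 fold change was -0.05 (95% confidence interval -0.58 to 0.48, adjusted p = 0.954). SAPK10 (OS03G0610900, chromosome 3), which phosphorylates TRAB1 and the related factor bZIP72, was the lowest of the family. It had 6.30 and 5.31 FPKM in bta1-1, against 7.03 and 6.98 FPKM in wild type. Both mutant values were the lower ones, but the log2 fold change of -0.30 (95% confidence interval -0.95 to 0.35) did not pass the test (adjusted p = 0.690).

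The ratio of SAPK9 to SAPK8 within a library removes library size from the comparison. It was 0.139 and 0.136 (FPKM over FPKM) in bta1-1 libraries 1 and 2, against 0.331 and 0.319 in wild type libraries 1 and 2. SAPK9 made up 11.3% and 11.4% of the summed FPKM of SAPK8, SAPK9 and SAPK10 in bta1-1, against 23.4% and 22.6% in wild type. The replicates lay close together and the groups were apart. SAPK9 over SAPK10 was 1.56 and 2.31 in bta1-1, against 3.98 and 3.53 in wild type, also without overlap. No p is given for these ratios, since an exact permutation test of 2 libraries against 2 cannot go below a two-sided p of 0.333.

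**Figure D2:**
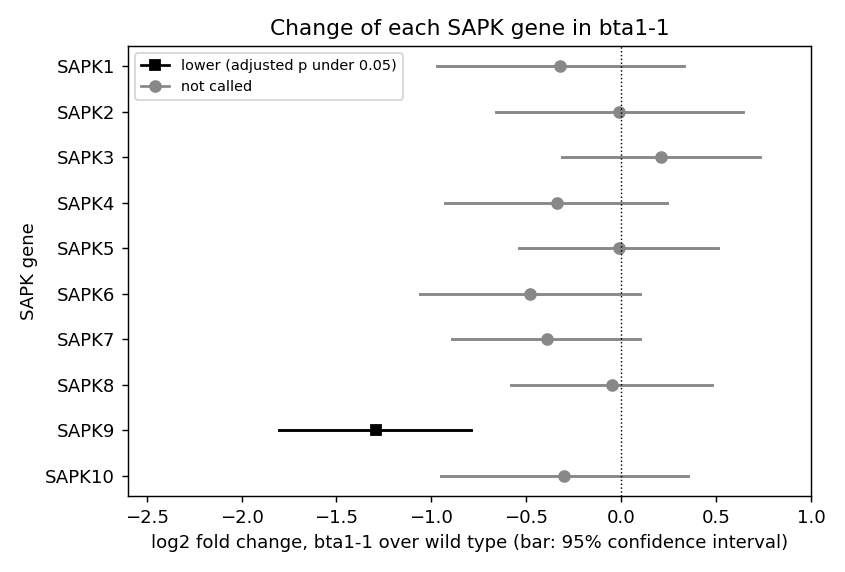
Log2 fold change of each SAPK gene, bta1-1 over wild type, with its 95% confidence interval from edgeR. The interval of SAPK9, -1.80 to -0.79, excludes 0, and those of the other 9 genes include it.

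As sets, the abscisic acid-activated kinases and the rest were compared in 2 ways that differed in outcome, both without a test. The median log2 fold change was -0.30 for SAPK8, SAPK9 and SAPK10, with a range of -1.29 to -0.05, and -0.32 for SAPK1 to SAPK7, with a range of -0.48 to 0.21. The difference of 0.01 between the medians was computed before rounding, and over all tested genes the median was -0.01. SAPK9 was the 1 called member of its subclass, and the median of the 3 is the value of SAPK10. Without 1 library in turn the difference ranged from -0.14 to -0.03. Taken library by library on log2 CPM centred per gene, the median of SAPK8 to SAPK10 minus that of SAPK1 to SAPK7 was -0.11 and -0.17 in bta1-1 libraries 1 and 2, against -0.02 and 0.10 in wild type libraries 1 and 2. There the groups did not overlap, with an SD of 0.07 between replicates, so the near-zero difference of the median fold changes depends on where the median is taken. SAPK8, SAPK9 and SAPK10 held 12% and 15.4% of the summed SAPK FPKM in bta1-1 libraries 1 and 2, and 14.3% and 14.4% in wild type libraries 1 and 2. The 2 mutant values bracketed those of wild type, and the difference of the means was -0.64 percentage points. It was 1.03 without bta1-1 library 1 and -2.32 without bta1-1 library 2. The sum includes SAPK4, whose FPKM rest on a short gene length. With that length set to the median of the other members, the difference was -1.29. In reads the shares were 12.5% and 15.7% in bta1-1, against 15.4% and 16.2% in wild type. There the groups overlapped but the mutant values did not bracket those of wild type, and the difference in CPM was -1.72.

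Among the subclass II kinases, SAPK2 (OS07G0622000, chromosome 7), which mediates abscisic acid and drought responses, had 243 and 224 FPKM in bta1-1 libraries 1 and 2 and 259 and 203 FPKM in wild type libraries 1 and 2. The mutant values fell inside the range of the wild type ones, and the log2 fold change was -0.01 (95% confidence interval -0.66 to 0.64, adjusted p = 0.994). SAPK1 (OS03G0390200, chromosome 3), known for a part in salt tolerance, had 14.2 and 9.45 FPKM in bta1-1 and 14.8 and 14.2 FPKM in wild type. Its library 2 of bta1-1 stood apart: the 2 mutant libraries differed by 0.73 (log2 CPM), the largest difference between replicates in the family. The log2 fold change of SAPK1 was -0.32 (adjusted p = 0.670), and 0.04 without bta1-1 library 2. SAPK3 (OS10G0564500, chromosome 10) had 31.4 and 34.8 FPKM in bta1-1 and 32.2 and 23.7 FPKM in wild type, and was the 1 member with a fold change above 0, at a log2 value of 0.21 (95% confidence interval -0.31 to 0.73, adjusted p = 0.735).

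Among the subclass I kinases, SAPK6 and SAPK7 had the lowest fold changes of the family after SAPK9. SAPK6 (OS02G0551100, chromosome 2), which phosphorylates bZIP46, had 52.6 and 44.6 FPKM in bta1-1 libraries 1 and 2, against 75.5 and 57.8 FPKM in wild type libraries 1 and 2. Its groups did not overlap, but the log2 fold change of -0.48 (95% confidence interval -1.06 to 0.10) was not called (adjusted p = 0.391). SAPK7 (OS04G0432000, chromosome 4) had 17.9 and 20.3 FPKM in bta1-1, against 26.9 and 22.0 FPKM in wild type, and its log2 fold change of -0.39 was not called either (adjusted p = 0.420). SAPK5 (OS04G0691100, chromosome 4) varied little in scaled counts over the 4 libraries, at 94.3 and 97.1 CPM in bta1-1 and 94.7 and 98.6 CPM in wild type, and had a log2 fold change of -0.01 (95% confidence interval -0.54 to 0.51, adjusted p = 0.989). SAPK4 (OS01G0869900, chromosome 1), a regulator of salt acclimation, had 131 and 105 CPM in bta1-1, against 138 and 161 CPM in wild type. Its log2 fold change was -0.34 (95% confidence interval -0.93 to 0.24, adjusted p = 0.586).

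Across the family, 9 of 10 log2 fold changes were below 0 and the median was -0.31, beside a median of -0.01 over all tested genes. SAPK2 and SAPK5, counted among these 9, stood at -0.01 as well. On each of the 3 settings of limma on FPKM, 7 of 10 were below 0. The family median became -0.44 without bta1-1 library 1 and -0.11 without bta1-1 library 2, with 7 of 10 below 0 in each. In CPM the groups did not overlap for 6 members, 5 lower and 1 higher, while 46.9% of all tested genes did not overlap (23.2% lower and 23.7% higher). For the 9 members that were not called, the confidence intervals together reached from -1.06 to 0.73, so a change of about 2-fold was not excluded for the member at the lower end, SAPK6. In counts simulated with this design for 24396 genes, of which 200 were changed, the fit found 17% of 2-fold and 72% of 4-fold changes. The changed genes were drawn over all read levels, so these are not the rates for the SAPK genes. The fit of the deposited counts called 1319 genes. With only 200 changed genes the adjustment sets a stricter cut on p, so the simulated rates do not carry over to that fit. An uncalled kinase is not shown to be unchanged.

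The kinases differed far more from one another than between the lines. In bta1-1 the order by mean FPKM was SAPK2 (234 ± 13.7), SAPK4 (210 ± 17.0), SAPK8 (80.5 ± 13.7), SAPK5 (59.4 ± 5.40), SAPK6 (48.6 ± 5.65), SAPK3 (33.1 ± 2.38), SAPK7 (19.1 ± 1.67), SAPK1 (11.8 ± 3.37), SAPK9 (11.0 ± 1.73) and SAPK10 (5.80 ± 0.698; SD, n = 2). Only SAPK1 and SAPK9 overlapped as neighbours in that order. In wild type the order was SAPK4 (260 ± 14.7), SAPK2 (231 ± 39.9), SAPK8 (80.8 ± 5.07), SAPK6 (66.6 ± 12.6), SAPK5 (58.3 ± 1.41), SAPK3 (28.0 ± 6.07), SAPK9 (26.3 ± 2.37), SAPK7 (24.4 ± 3.48), SAPK1 (14.5 ± 0.434) and SAPK10 (7.01 ± 0.0361; SD, n = 2). There SAPK4 and SAPK2 overlapped, as did SAPK6 and SAPK5, SAPK3 and SAPK9, and SAPK9 and SAPK7. SAPK9 thus ranked number 9 in bta1-1 and number 7 in wild type. SAPK2 stood 40.3 times above SAPK10 in bta1-1 and 32.9 times above it in wild type. Among all tested genes, the mean FPKM over the 4 libraries put SAPK2 and SAPK4 both at percentile 97.9, SAPK9 at 68.3 and SAPK10 at 42.9.

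The place of SAPK4 in these orders depends on the length the authors used. Counts divided by FPKM give a length of 567 bases for SAPK4, while those of the other 9 members run from 1101 to 1639 bases with a median of 1530. At that median length SAPK4 would have 77.7 FPKM in bta1-1 and 96.2 FPKM in wild type, near SAPK8. Its difference between the lines does not depend on the length. SAPK2 and SAPK4 together held 64.3% and 60.1% of the summed SAPK FPKM in bta1-1 libraries 1 and 2, and 60.8% and 62.5% in wild type libraries 1 and 2, as deposited.

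**Figure D3:**
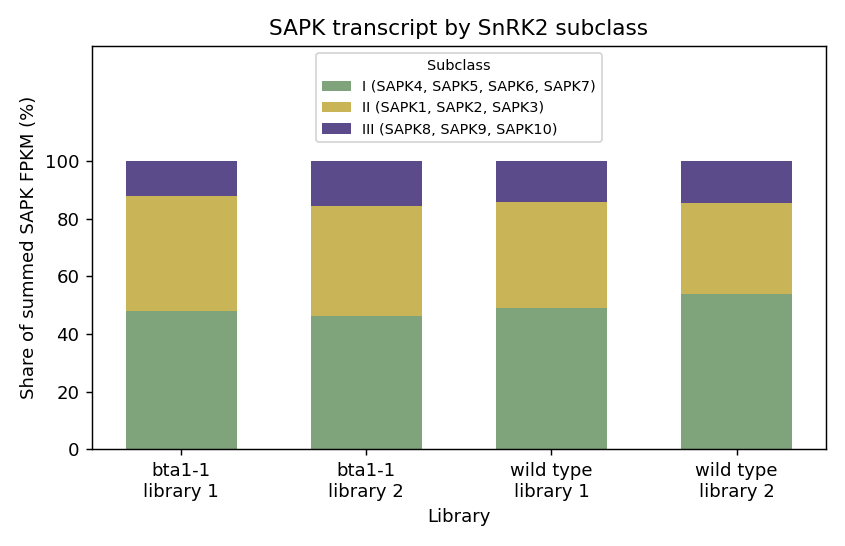
Share of the summed FPKM of the 10 SAPK genes held by each SnRK2 subclass, in percent, with 1 stacked bar per library and the bta1-1 libraries on the left. Subclass III holds 12% and 15.4% in bta1-1 and 14.3% and 14.4% in wild type, and the share of subclass I is raised by the short length of SAPK4.

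By subclass, SAPK4 to SAPK7 took 48.1% and 46.4% of the summed FPKM in bta1-1 libraries 1 and 2, against 49.1% and 53.8% in wild type libraries 1 and 2. SAPK1 to SAPK3, mostly SAPK2, took 39.9% and 38.2% in bta1-1, against 36.6% and 31.8% in wild type. The groups did not overlap in either share, but the 2 wild type libraries were farther from each other than the nearest libraries of the groups were. Summed over all 10 genes the family had 724 and 702 FPKM in bta1-1, against 836 and 756 FPKM in wild type.

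Among the other listed components of the pathway, the clade A phosphatases, which hold SAPK kinases inactive, had 5 of 9 tested genes lower in bta1-1 and 0 higher, beside 2.64% of all tested genes called lower. The called genes were PP2C06, PP2C08, PP2C09, PP2C30 and PP2C37, which fell by log2 1.34 to 2.05. The largest fall, that of PP2C37, rests on 14 and 18 reads in bta1-1, against 102 and 37 reads in wild type (adjusted p = 0.0498). With libraries scaled by relative log expression instead, edgeR did not call PP2C37 (adjusted p = 0.0502). The other 4 tested, PP2C49, PP2C50, PP2C53 and PP2C68, were at -1.55, -1.05, -0.31 and -0.89 on the log2 scale (adjusted p of 0.0975 to 0.561), and PP2C51 had too few reads to be tested. The list median was -1.55, beside -0.01 over all tested genes. Drought responses are among the subjects this study is known for, so neither this list nor that of the response genes described last is independent evidence of its direction.

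PP2C06, also called ABIL1 and the most abundant of these phosphatases, had 1528 and 1778 reads in bta1-1 libraries 1 and 2, against 5975 and 2693 reads in wild type libraries 1 and 2. It averaged 93.9 ± 3.31 CPM in bta1-1 and 238 ± 70.1 CPM in wild type (SD, n = 2; adjusted p = 0.0345). Wild type library 1 stood well above library 2, and the same held for PP2C30, with 61 and 66 reads in bta1-1 against 363 and 130 reads in wild type (log2 fold change -1.88, adjusted p = 0.0278). Over the 9 tested phosphatases the median difference of wild type library 1 over library 2 was 0.72 (log2 CPM), while for the SAPK genes it was 0.05. Without wild type library 1, 0 of 9 phosphatases were called, with all 9 log2 fold changes still below 0 and a median of -1.10. The number called was 3 without bta1-1 library 2, and 0 on each of 3 settings of limma on FPKM.

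Set against kinase transcript, phosphatase transcript in both bta1-1 libraries lay below that in both wild type libraries, a comparison given without a test. Summed FPKM of the 10 listed phosphatases over that of the 10 SAPK genes was 0.168 and 0.216 in bta1-1 libraries 1 and 2, against 0.450 and 0.301 in wild type libraries 1 and 2. The phosphatase sums were 122 and 151 FPKM in bta1-1, against 376 and 227 FPKM in wild type. The groups did not overlap in either quantity, and wild type library 1 was the highest in both.

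Of 6 tested PYL receptors 0 were called (1 higher and 0 lower at an unadjusted p under 0.05, 0 by DESeq2), beside 5.41% of all tested genes called in either direction. Their median log2 fold change of 0.49 became 0.20 when wild type library 1 was left out. The smallest p belonged to PYL6, with 2088 and 1693 reads in bta1-1 libraries 1 and 2, against 1059 and 1117 reads in wild type libraries 1 and 2 (log2 fold change 0.75, SE 0.29, adjusted p = 0.219). Its groups did not overlap, but the difference failed the correction. PYL10 and PYL11 stood at -0.34 and -0.33 (log2 fold change). Receptor sums were 383 and 367 FPKM in bta1-1 and 297 and 375 FPKM in wild type, with the groups overlapping.

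Of 7 tested targets of the kinases, 6 bZIP factors and the channel SLAC1, 0 were called (0 higher and 3 lower at an unadjusted p under 0.05, 0 by DESeq2), beside 5.41% of all tested genes. The list median was -0.72, and 6 of 7 fold changes were below 0. bZIP72, a substrate of SAPK10, had the smallest p, with 682 and 678 reads in bta1-1 libraries 1 and 2, against 1324 and 921 reads in wild type libraries 1 and 2. It averaged 38.8 ± 2.95 CPM in bta1-1 and 64.0 ± 0.460 CPM in wild type (SD, n = 2; log2 fold change -0.72, adjusted p = 0.109).

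**Figure D4:**
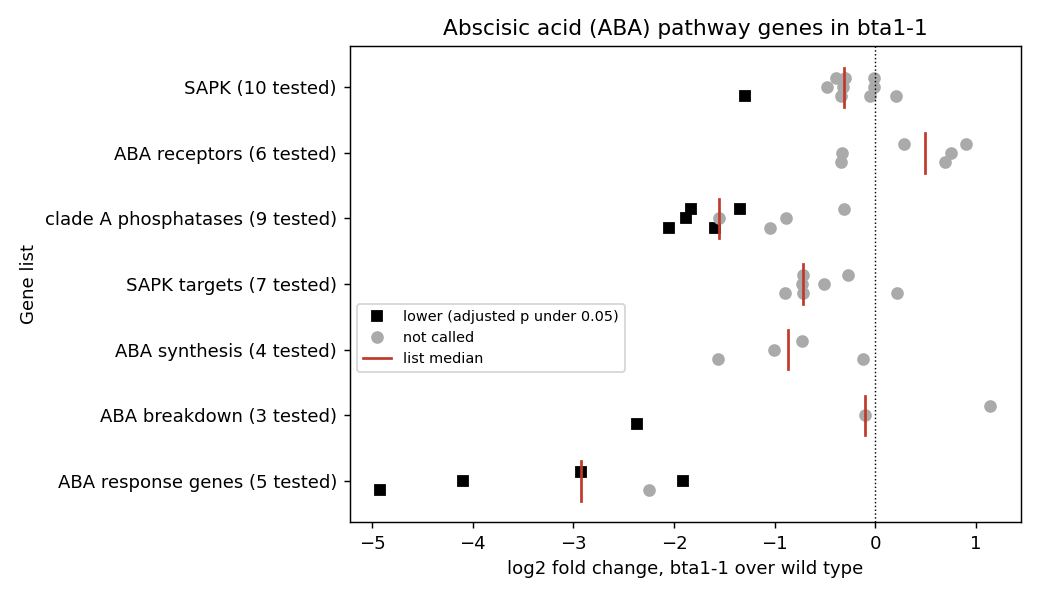
Log2 fold change, bta1-1 over wild type, of the tested genes of each abscisic acid list, with black squares for genes called lower, grey points for genes not called and a red line at the list median. The SAPK genes have a median of -0.31, with SAPK9 at -1.29 and the other 9 from -0.48 to 0.21. The phosphatases have a median of -1.55 and the response genes one of -2.92.

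Among transcripts of abscisic acid breakdown and synthesis genes, ABA8OX2, whose enzyme breaks the hormone down, fell 5.17-fold. It had 38 and 39 reads in bta1-1 libraries 1 and 2, against 218 and 176 reads in wild type libraries 1 and 2 (log2 fold change -2.37, SE 0.33, adjusted p = 0.00577). It was the 1 called of 3 tested breakdown genes, beside 2.64% of all tested genes called lower. ABA8OX1 and ABA8OX3 were not called, at log2 values of 1.14 and -0.10. Of 4 tested synthesis genes 0 were called (0 higher and 1 lower at an unadjusted p under 0.05, 0 by DESeq2), beside 5.41% of all tested genes, and their median of -0.87 became 0.08 without wild type library 1. NCED5, an enzyme that cleaves carotenoids to make the hormone's precursor, had the smallest p on 12 and 15 reads in bta1-1, against 51 and 30 reads in wild type (log2 fold change -1.56, adjusted p = 0.102).

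Of 5 tested genes that abscisic acid induces, 4 were lower in bta1-1 and 0 higher, beside 2.64% and 2.77% of all tested genes. Their median log2 fold change was -2.92, the value of RAB16B, beside -0.01 over all tested genes. RAB16C was not called (log2 fold change -2.25, adjusted p = 0.0546). RAB16A, RAB16B and RAB16C have locus identifiers close together on chromosome 11, the chromosome of LAZY1. They do not stand for separate places in the genome, and whether their position bears on the change was not tested. The 4 called lower were the dehydrins RAB16A (log2 fold change -4.92), RAB16B (-2.92) and DHN1 (-1.91) and the late embryogenesis abundant gene LEA3 (-4.10). In bta1-1 libraries 1 and 2, RAB16A had only 11 and 12 reads, RAB16B 10 and 11, and LEA3 5 and 5. The sizes of these 3 fold changes are therefore uncertain. LEA3 passed the filter on low counts only through wild type, with 136 and 49 reads. DHN1 had 5941 and 6685 reads in bta1-1, against 31268 and 17065 reads in wild type. All 4 were called with each library left out in turn, where the lone library of a group is assumed to vary like the other group, and 0 of them by limma on log2(FPKM + 1) for every gene with any value.

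Likeness of pattern was measured as the root mean square difference between log2 CPM profiles over the 4 libraries, each centred on its own mean, against the other 43 tested genes of the abscisic acid lists. Nearest to SAPK9 were NCED5 at 0.09, PP2C06 at 0.19 and PP2C49 at 0.25. All 3 were low in both mutant libraries and none is a SAPK gene. NCED5 and PP2C49 were not called and had few reads in bta1-1 libraries 1 and 2, 12 and 15 for NCED5 and 18 and 27 for PP2C49. The prior count of 2 in log2 CPM narrows differences at such low counts, so their distances depend in part on it. Nearest to SAPK4, the member with the highest mean FPKM as deposited, were SAPK10 at 0.06, PYL11 at 0.07 and PYL10 at 0.12. Profiles over 4 libraries of 2 lines mostly carry the difference between the lines, so these distances are a description.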

How the data were processed

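The authors deposited unnormalized read counts per gene and, in a second table, FPKM for the same genes. Counts divided by FPKM gave a whole gene length (within 0.01 base) in 100% of values. Per the submitters' processing notes, which give neither roles nor order, the genome build was IRGSP-1.0 and the tools were HTSeq 0.6.1, TopHat2 2.0.12 and Bowtie2 2.2.3. The sources used here give no annotation release or strand setting, so reads from overlapping genes or antisense partners cannot be separated. Per the labels' protocols, a commercial Illumina library kit was used.

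The whole table went through edgeR 4.0.16 under R 4.3.3 (TMM, filterByExpr with a minimum count of 10 and total of 15, robust quasi-likelihood fit on group alone, two-sided). SE is the log2 fold change over the square root of F, and intervals use it at 95% with the t distribution. CPM are TMM-scaled, and log2 CPM have a prior count of 2. Alternatives used DESeq2 1.42.0, limma 3.58.1 on log2(FPKM + 1) or log2(FPKM + 0.1), other filters, and each library left out. The fit was tested on simulated data. Replicates were not copies of 1 library (chi-square per degree of freedom 48.4 in bta1-1 and 35.1 in wild type).

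The members and lists were chosen with earlier results of these data known. Of 60 listed names, 38 matched the RefSeq table (by symbol and chromosome), 21 were not in it and rest on published locus identifiers, among them LAZY1, PYL6, PYL10, bZIP72, NCED5, RAB16A, PP2C37 and the Rubisco loci, and PYL5 was dropped because the table places it elsewhere. Named are all SAPK genes, LAZY1, the called members of each list or the member with the smallest p, and the nearest profiles. Genes named beyond this are the remaining members of short lists and were chosen after their values were seen. Protein and promoter sequences were not used here.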

Additional observations from a re-analysis of the deposited data

How the results depend on the processing

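SAPK9 stayed lower in all 12 alternatives run for it, at log2 fold changes of -1.35 to -1.19, and lost its call in 1, limma on log2(FPKM + 1) for every gene with any value (adjusted p = 0.173), where the count of SAPK genes lower was 0. No other SAPK gene was called in any of these 12, and 0 were called higher. Signs changed for uncalled members near 0. With 1 library left out, the log2 fold change ranged from -0.73 to 0.04 for SAPK1, -0.15 to 0.15 for SAPK2, -0.04 to 0.02 for SAPK5 and -0.12 to 0.05 for SAPK8, and on the 3 FPKM settings SAPK2 was at 0.03 and SAPK5 at 0.02. The difference of the medians, SAPK8 to SAPK10 minus SAPK1 to SAPK7, ranged from -0.14 to -0.03 with 1 library left out, against 0.01 with all 4, and the difference in their FPKM share ranged from -2.32 to 1.03 percentage points.

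Genes higher and lower numbered 1582 and 1322 when every gene with any read was tested, and 2 and 9 on log2(FPKM + 1) for every gene with any value, the setting that also ended the calls of LAZY1, ABA8OX2, RAB16A, RAB16B, LEA3 and DHN1. With 1 library left out they ranged from 401 to 1202 higher and from 482 to 854 lower. Phosphatases called lower numbered 8 with every gene with any read, 0 on each of the 3 FPKM settings, and 0 to 6 with 1 library left out; the cause was not tested.

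With the replicate number as a block, 359 genes were higher and 415 lower, SAPK9 had adjusted p = 0.0401 and 1 phosphatase was called. No label says that equal numbers mark a pair, and same-numbered deviations correlated at -0.416 across genes. Each group gives only 1 difference between replicates, so this correlation cannot decide whether the numbers pair the samples. With crossed numbers as a block, chosen after seeing the data, 1972 genes were higher and 1772 lower, with 1 SAPK gene and 8 phosphatases lower.

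With 2 libraries per group and 200 changed genes, 17% of simulated 2-fold changes were recovered over all genes. The deposited counts gave 1319 called genes and so a less strict cut on p, and this rate does not carry over to them. Fits without 1 library rest on the spread of the other group, since the lone library is assumed to vary alike.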
